A study of Mus musculus with 8 samples.

Results

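Histone-modifying enzyme genes were examined in mouse embryos at the 2-cell stage that carried a knock-out of Dux, a homeobox transcription factor gene, and in wild-type (WT) embryos of that stage. The genes were chosen by symbol alone, with no measured value: all Hdac, Sirt, Kdm, Kmt, Kat, Setd, Prmt, Ehmt, Suv39h, Ezh and numbered Brd genes, with Eed, Suz12, Ep300 and Crebbp. The rule took 85 of the 13101 genes in the deposited table. In the GENCODE M21 annotation 93 genes match the rule, and 8 of them (Hdac5, Hdac7, Hdac11, Setd7, Prmt8, Kdm6bos, Kat6b-ps1 and Kat6b-ps2) were not analysed here. Of the 85, 83 are annotated as protein coding and Kdm4dl and Kat2b-ps as pseudogenes.

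RNA sequencing of polyadenylated RNA was carried out on 4 Dux KO and 4 WT pools, each of 12 to 18 embryos from timed matings on a C57BL/6 background. The allele, the genotype of the mothers and the sex of the embryos are not given in the labels used here. Libraries held 12343369 to 14548526 reads on genes, of which the 85 genes took 0.574 to 0.648%. Values are FPKM, fragments scaled to transcript length and depth, so levels can be set side by side between genes of different length. A p-value here sets the difference between groups against the spread of pools within them. As the labels do not say whether pools came from separate parents, the pools may not be independent. That spread may then hold differences between embryos and in handling, but not those between parents. A lower value in a pool can come from fewer cells expressing a gene or from less RNA per cell, and these cannot be told apart.

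Histone-modifying enzymes are grouped as writers, erasers and readers. Acetyltransferases and methyltransferases place acetyl or methyl groups on histone tails, deacetylases and demethylases remove them, and bromodomain proteins bind acetylated lysines. In the 2-cell mouse embryo maternal transcripts are cleared while the embryo's genome is first transcribed, so a transcript's level reflects both stored and new RNA. DUX activates genes of this stage and the MERVL family of endogenous retroviruses.

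The deposited table holds 0 rows for Dux itself, so the knocked-out gene could not be checked. The internal part of MERVL (MERVL-int) stood at 11360 to 16381 FPM (fragments scaled to library size) in WT pools, against 4548 to 6050 in Dux KO pools, with no overlap. Markers of the 2-cell embryo and of maternal RNA were all present, 12 of 12, and had a summed level of 5634 to 6938 FPKM in WT, against 4430 to 6864 FPKM in Dux KO. Of these 12, 2 rose and 3 fell. Btg4 and Bmp15 rose, each with a log2 change of 1.34. Zp3, Zscan4f and Dppa3 fell, with log2 changes of -1.13, -0.94 and -0.61. Dppa3 made up most of the sum, at 4576 to 5665 FPKM in WT and 3158 to 3747 FPKM in Dux KO. Btg4 was at 300 to 545 FPKM in WT and 494 to 2183 FPKM in Dux KO. Of 10 cumulus and granulosa markers 3 are in the table, summing to 1.25 to 9.07 and 4.44 to 18.8 FPKM (1 higher). Of 6 oviduct markers 3 are in it, summing to 130 to 150 and 96.8 to 138 FPKM (1 lower). Epcam made up most of that sum, at 116 to 143 FPKM in WT and 65.2 to 113 FPKM in Dux KO. The lower call was that of Epcam alone (log2 change -0.56). Ovgp1 and Krt18 were not called, with log2 changes of 0.91 and 0.76. Of 5 blood markers only Cd68 is in the table, at 1.33 to 5.61 and 1.77 to 4.88 FPKM (not called). No row matched the 6 sperm markers. The part of these other cell types in the results below was not tested. On the first principal component (58.1% of the variance) Dux KO replicate 2 lay farthest out.

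In the Dux KO pools 16 of the 82 genes tested fell and 5 rose, as tested with limma on log2(FPKM + 1) at a Benjamini-Hochberg adjusted p under 0.05. The genes that fell were the acetyltransferases Kat8, Kat2a, Kat14 and Kat2b, the deacetylases Hdac8, Hdac1 and Sirt7, the methyltransferases Setd2, Setdb2, Kmt5b and Prmt5, the Polycomb subunit Eed, and the demethylases Kdm2b, Kdm4c, Kdm3b and Kdm5b. Those that rose were Setd6, Prmt2, Hdac3, Suv39h2 and Suz12. Among all 12434 genes tested 33.6% were called, 15.5% higher and 18.1% lower, against 25.6% of the histone-modifying enzyme genes, 6.10% higher and 19.5% lower. Their share of lower genes lay near that of all genes, and their share of higher genes below it. The median log2 change was -0.15 over the 82 genes and -0.02 over all genes tested, and 53 of the 82 changes were negative. Changes refer to log2(FPKM + 1), which understates those of genes at low levels.

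The 4 values of one group all lay above those of the other for 25 of the 82 genes (30.5%), 19 of them lower and 6 higher in Dux KO, against 33.1% of all genes tested. Kdm5b and Sirt7 among the lower genes and Prmt2 among the higher ones had groups that overlapped. The count depended on the pools used. With WT replicate 4 left out, 1 of the genes rose and 12 fell (20.3% of all genes called). The higher and lower counts were 2 and 12 on leaving out Dux KO replicate 1 (21.6% of all genes called), 2 and 14 on leaving out Dux KO replicate 2 (23.5%), and 3 and 15 on leaving out WT replicate 1 (27.5%) or WT replicate 2 (28.6%). With Dux KO replicates 1 and 2 both left out, 6.39% of all genes were called and, of the genes here, only Setdb2 (log2 change -0.66). Without Dux KO replicates 3 and 4, the counts were 4 and 14 (31.7% of all genes). In that fit Setd6, Suz12, Kat2a, Kat2b and Sirt7 lost their calls, and Setd4 and Prmt1 gained one. On whole reads recovered from the FPKM values, edgeR called 7 higher and 16 lower genes (34.9% of all genes) and DESeq2 7 higher and 18 lower (39.6%). The authors' deposited table also calls 7 higher and 18 lower at an adjusted p under 0.05 (35.6% of all genes).

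**Figure D1:**
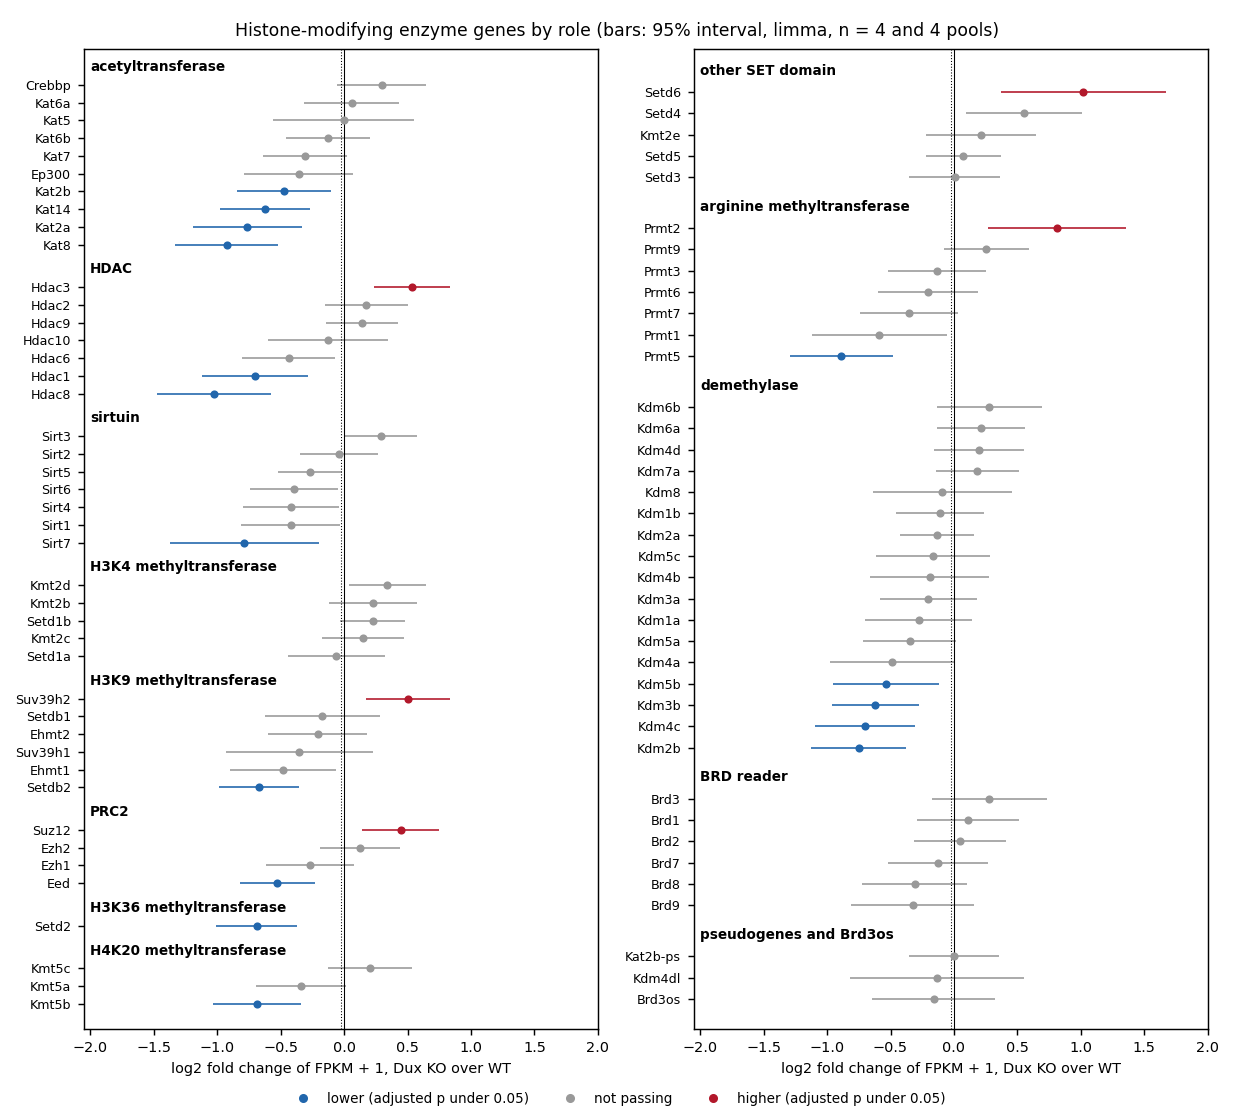
Log2 change of FPKM + 1 in Dux KO over WT (horizontal axis) for 81 of the 82 genes tested, grouped by role, with 95% intervals from limma (4 and 4 pools). The solid line marks 0 and the dotted line the median of all genes tested. Blue genes (16) fell, red genes (5) rose and grey genes (60) did not pass, and the log2 changes run from -1.02 (Hdac8) to 1.02 (Setd6).

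Levels spanned from 0.141 to 114 FPKM as means over the 8 pools. In WT, Suz12 was the most abundant, followed by Setd2, Eed, Setdb2, Sirt1, Prmt5 and Kat8. In Dux KO, Prmt5 moved from rank 6 to rank 12 and Kat8 from rank 7 to rank 16, while Hdac2 moved from rank 8 to rank 4. Of the 17 genes averaging 15 FPKM or more, 52.9% were called, 3 higher and 6 lower, against 46.3% of all genes at that level. Of the 31 genes at 5 to under 15 FPKM, 22.6% were called, against 37.1% of all genes there, and of the 24 at 1 to under 5 FPKM, 16.7% against 26.6%. Among the 10 at 0.5 to under 1 FPKM only Hdac3 was called, against 17.9% of all genes at that level. The summed FPKM of the 85 genes was 870 to 989 over the WT pools and 799 to 896 over the Dux KO pools; totals over all genes were 434070 to 488076 and 377779 to 425287, so the 85 genes held 0.192 to 0.213% and 0.201 to 0.213% of them.

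**Figure D2:**
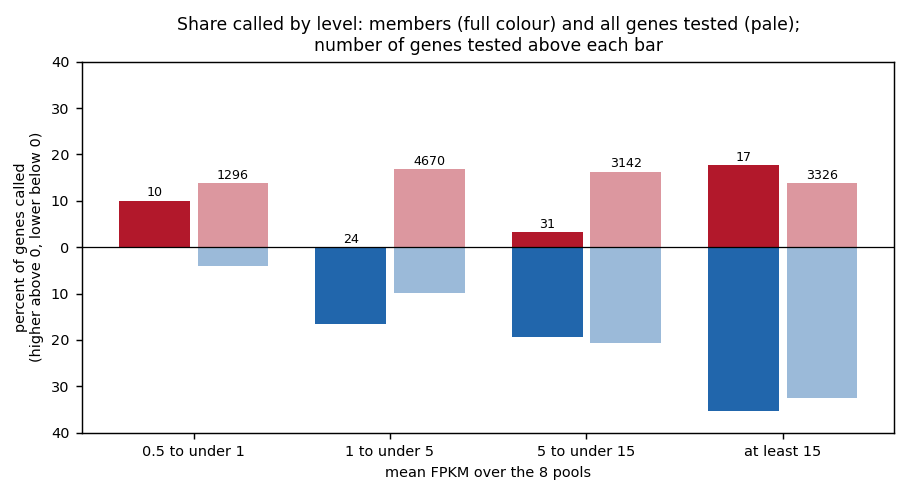
Percent of genes called by limma (vertical axis, higher genes above 0 and lower genes below) in 4 classes of mean FPKM over the 8 pools (horizontal axis), for the histone-modifying enzyme genes (full colour) and all genes tested (pale). Numbers above the bars count the genes tested; in the top class 3 of 17 genes here rose and 6 fell.

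Promoter sequence was available for 69 of the 85 genes in the RefSeq promoter set (GRCm38.p6, 250 bases before the start site). The stretches of 5 of the genes described below are shown because they include both directions of change: Kat8, Setd2 and Prmt5 fell and Suz12 and Prmt2 rose. Each is written 5′ to 3′ on the strand of the gene and ends where annotated exons begin. Capitals mark GC boxes (GGGCGG, the core of the sequence bound by SP1 and its relatives) and CCAAT boxes (CCAAT, bound by NF-Y), on either strand; boxes that overlap run together.
Kat8, chr7:127912267-127912515, plus strand: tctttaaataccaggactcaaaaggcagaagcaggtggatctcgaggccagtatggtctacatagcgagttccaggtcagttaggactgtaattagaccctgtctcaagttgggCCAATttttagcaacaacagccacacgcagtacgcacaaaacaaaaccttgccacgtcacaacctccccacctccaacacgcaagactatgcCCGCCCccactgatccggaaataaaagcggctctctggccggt
Setd2, chr9:110532347-110532596, plus strand: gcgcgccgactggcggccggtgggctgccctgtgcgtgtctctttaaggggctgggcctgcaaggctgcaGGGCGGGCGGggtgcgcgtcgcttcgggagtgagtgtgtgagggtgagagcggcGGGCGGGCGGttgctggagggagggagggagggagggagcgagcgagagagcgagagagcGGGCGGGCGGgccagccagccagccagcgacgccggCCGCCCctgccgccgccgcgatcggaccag
Prmt5, chr14:54517526-54517720, minus strand: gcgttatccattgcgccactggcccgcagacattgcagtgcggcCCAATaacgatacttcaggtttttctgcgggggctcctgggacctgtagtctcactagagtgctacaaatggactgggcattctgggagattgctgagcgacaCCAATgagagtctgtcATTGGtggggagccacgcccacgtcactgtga
Suz12, chr11:79992856-79993105, plus strand: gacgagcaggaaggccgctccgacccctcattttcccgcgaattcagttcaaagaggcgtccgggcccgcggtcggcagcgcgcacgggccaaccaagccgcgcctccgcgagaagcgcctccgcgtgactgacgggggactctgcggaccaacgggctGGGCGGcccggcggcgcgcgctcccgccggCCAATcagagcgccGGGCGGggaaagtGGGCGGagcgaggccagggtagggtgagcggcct
Prmt2, chr10:76237866-76238115, minus strand: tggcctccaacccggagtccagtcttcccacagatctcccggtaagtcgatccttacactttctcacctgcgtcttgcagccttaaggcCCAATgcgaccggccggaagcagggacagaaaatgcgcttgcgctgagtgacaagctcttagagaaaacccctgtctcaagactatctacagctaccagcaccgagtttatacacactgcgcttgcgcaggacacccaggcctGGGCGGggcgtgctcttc

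The GC box was present in 46 of 69 promoters (66.7%), against 60.9% of the 9641 genes of the deposited table with a promoter and 35.4% of all 27025 in the set. It stood in 7 of 14 lower genes, 4 of 4 higher genes and 35 of 51 genes not called. The Suz12 stretch holds 3 GC boxes and 73.6% G and C, and the Prmt5 stretch holds 3 CCAAT boxes and no GC box. CCAAT was found in 30 of 69 promoters (43.5%, against 41.6% of genes of the table and 37.5% of all), and TATAAA in 4 of 69 (5.80%, against 8.17% and 14.3%). A DUX sequence of TGATT and ATCA with 2 bases between them was found in 0 of 69, as against 0.156% of the genes of the table and 0.207% of all; this says only that these letters are not in these windows.

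The acetyltransferases had 4 of 10 genes lower (against 18.1% of all genes) and none higher (against 15.5%), with a median log2 change of -0.33. At an unadjusted p under 0.05 the counts were also 4 lower and 0 higher (24.8% and 21.7% of all genes), and no acetyltransferase was higher with edgeR or DESeq2. Kat8, which acetylates lysine 16 of histone H4, lies on chromosome 7 (127912516 to 127925837, GRCm38). It stood at 30.5, 21.3, 30.4 and 37.2 FPKM in the 4 WT pools and at 15.8, 12.5, 17.8 and 14.2 FPKM in the 4 Dux KO pools. Every Dux KO pool lay below every WT pool, and the means were 29.8 ± 6.50 and 15.1 ± 2.28 FPKM (SD, n = 4 each), a log2 change of -0.92 (adjusted p = 0.00595). Kat2a, the catalytic subunit of the SAGA and ATAC coactivator complexes, fell from 9.68, 12.9, 6.42 and 8.84 FPKM to 5.11, 5.37, 4.23 and 5.44 FPKM (log2 change -0.76, adjusted p = 0.0150), with no overlap. The Kat2a call was lost without Dux KO replicates 3 and 4 together. Kat14, a further subunit of ATAC, was at 7.98, 8.69, 9.81 and 11.2 FPKM in WT against 5.60, 4.80, 6.49 and 6.12 FPKM in Dux KO (log2 change -0.62, adjusted p = 0.0154). Its groups did not overlap either, but Kat14 shares 693 exon bases on the same strand with Pet117, so reads there cannot be assigned to either gene.

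Kat2b, the paralogue of Kat2a, stood at 4.40 to 6.65 FPKM in WT and 2.90 to 3.81 FPKM in Dux KO (log2 change -0.47, adjusted p = 0.0487). The groups did not overlap, yet the call was lost on leaving out any single pool, with an adjusted p for the omission of WT replicate 1 (0.0595), replicate 2 (0.0595), replicate 3 (0.0717) or replicate 4 (0.136), or of Dux KO replicate 1 (0.0844), replicate 2 (0.107), replicate 3 (0.0558) or replicate 4 (0.0848). It was also lost with no level filter (0.0505), with median-of-ratios scaling (0.0547) and with edgeR (0.0511). Using the replicate number as a block, or leaving out Dux KO replicates 3 and 4 together, lost it too. Its pseudogene Kat2b-ps, which may share reads with it, was at a mean of 2.17 FPKM in both groups (adjusted p = 0.999). The paralogous coactivators Ep300 and Crebbp did not pass with all pools. Ep300 was at 7.52, 7.75, 8.78 and 10.3 FPKM in WT and 6.33, 5.16, 5.42 and 9.58 FPKM in Dux KO (log2 change -0.36, adjusted p = 0.173), and it passed without Dux KO replicate 4 (0.0389). Crebbp was at 11.7, 12.6, 12.2 and 10.7 FPKM in WT and 13.5, 15.7, 12.1 and 18.4 FPKM in Dux KO (log2 change 0.30, adjusted p = 0.165). Kat7 had groups that did not overlap but did not pass (log2 change -0.31, adjusted p = 0.129), and Kat5, Kat6a and Kat6b had log2 changes of 0.00, 0.06 and -0.13.

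Of the 7 zinc-dependent histone deacetylases tested, Hdac8 and Hdac1 fell (28.6%, against 18.1% of all genes). Hdac3 rose (14.3%, against 15.5% of all genes) and 4 did not pass. Hdac8, a class I deacetylase also known for acting on cohesin, lies on chromosome X (102284639 to 102505359). It was at 4.88, 4.69, 2.99 and 4.16 FPKM in WT and 1.38, 1.45, 2.51 and 0.964 FPKM in Dux KO, from 65 to 315 reads a pool. The groups did not overlap, with means of 4.18 ± 0.850 and 1.57 ± 0.658 FPKM (SD, n = 4 each) and a log2 change of -1.02 (adjusted p = 0.00588).

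Hdac1 and Hdac2 are paralogues that act in the same corepressor complexes. Hdac1 was at 12.9, 13.6, 18.9 and 18.4 FPKM in WT against 8.38, 7.13, 11.4 and 11.0 FPKM in Dux KO, with no overlap (log2 change -0.70, adjusted p = 0.0190); the call was lost on omitting WT replicate 4 (adjusted p = 0.0566) or Dux KO replicate 1 (0.0542). Hdac2 was at 34.2, 28.4, 28.4 and 27.2 FPKM in WT and 37.7, 35.6, 33.2 and 27.9 FPKM in Dux KO, and did not pass (log2 change 0.18, 95% interval -0.15 to 0.50, adjusted p = 0.365). Hdac3, the deacetylase of the NCoR and SMRT corepressors, was low in all pools: 0.421, 0.479, 0.696 and 0.375 FPKM in WT and 0.850, 1.60, 1.06 and 1.19 FPKM in Dux KO, from 20 to 102 reads a pool. Its 4 Dux KO values lay above the 4 WT values (log2 change 0.54, adjusted p = 0.0146). Hdac6, a mainly cytoplasmic deacetylase on chromosome X, had groups that did not overlap but did not pass with limma (log2 change -0.44, adjusted p = 0.0621), though it did with DESeq2 (0.0333) and in the authors' deposited table. Hdac9 and Hdac10 had means under 1 FPKM in both groups. Hdac4 was below the level filter, at 0.159 to 0.262 FPKM in WT and 0.145 to 0.288 FPKM in Dux KO.

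Sirtuins are deacetylases and deacylases that depend on NAD. Sirt7, a nuclear and nucleolar member, was the only 1 of 7 called (14.3%, against 33.6% of all genes). It stood at 7.44, 6.35, 17.2 and 13.8 FPKM in WT against 6.05, 5.04, 6.37 and 4.99 FPKM in Dux KO (log2 change -0.79, adjusted p = 0.0419). The WT pools were themselves spread widely and the groups overlapped between 6.35 and 6.37 FPKM. The call was lost without WT replicate 3 (adjusted p = 0.0998), WT replicate 4 (0.113), Dux KO replicate 1 (0.0732), Dux KO replicate 2 (0.0861), Dux KO replicate 3 (0.0575) or Dux KO replicate 4 (0.0810), and under quantile normalization (0.0501). Leaving out Dux KO replicates 3 and 4 together also lost it. Sirt1, the most abundant sirtuin, was at 40.8, 48.5, 40.7 and 38.4 FPKM in WT against 31.7, 26.9, 25.4 and 43.1 FPKM in Dux KO (log2 change -0.42, adjusted p = 0.0871). Its Dux KO replicate 4 lay among the WT pools, and without that pool Sirt1 passed (adjusted p = 0.0215). Sirt4, Sirt5 and Sirt6 had Dux KO values below all WT values, and Sirt3 above (57.1% of the 7 sirtuins, against 33.1% of all genes). For Sirt4, Sirt5, Sirt6 and Sirt3 in turn, the adjusted p with limma was 0.0781, 0.0887, 0.0749 and 0.107. Sirt5 passed under quantile normalization (0.0273). Sirt3 shares 342 and 418 exon bases on the opposite strand with Psmd13 and Ric8a. Sirt7 shares 124 on the same strand with Mafg.

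**Figure D3:**
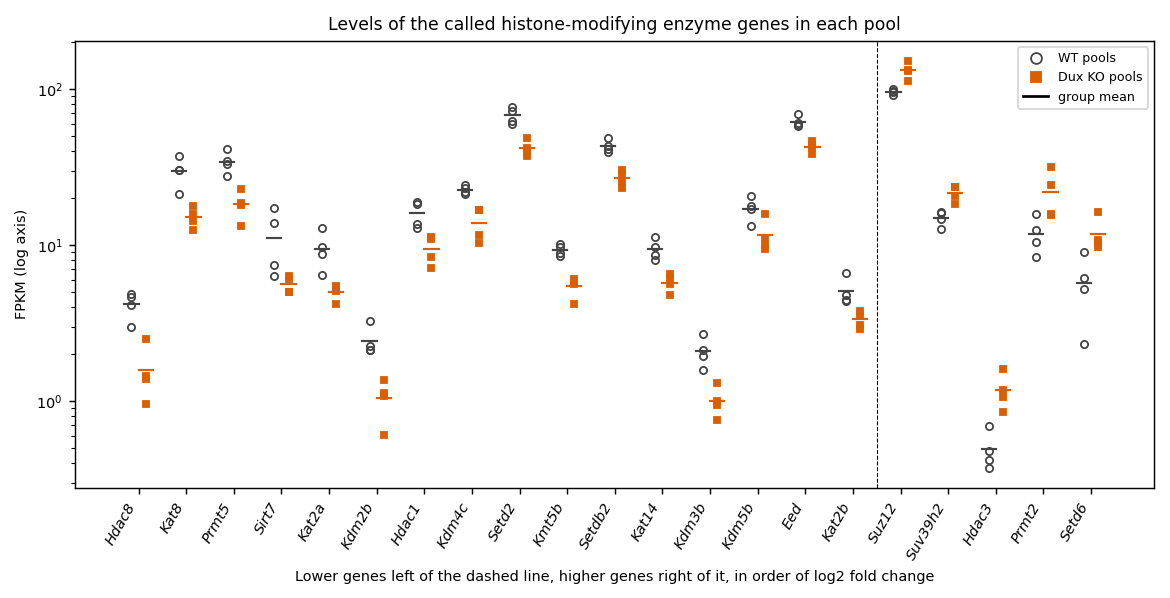
FPKM on a log axis for the 21 genes called, with 1 point for each of the 4 WT pools (open circles) and 4 Dux KO pools (filled squares) and a dash for each group mean. Genes left of the dashed line fell and those right of it rose, in order of log2 change from Hdac8 (-1.02) to Setd6 (1.02); the groups overlap for Sirt7, Kdm5b and Prmt2.

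Polycomb repressive complex 2 places methyl groups on lysine 27 of histone H3, with Ezh1 or Ezh2 as the catalytic subunit and Eed and Suz12 as its required partners. Of its 4 genes 1 rose (25.0%, against 15.5% of all genes), 1 fell (25.0%, against 18.1%) and 2 did not pass. Suz12, the most abundant of all 85 genes, was at 97.2, 100, 96.3 and 91.9 FPKM in WT against 130, 134, 113 and 152 FPKM in Dux KO. All Dux KO pools lay above all WT pools, at means of 96.4 ± 3.38 and 132 ± 15.8 FPKM (SD, n = 4 each; log2 change 0.45, adjusted p = 0.0294). That call was lost without WT replicate 1 (adjusted p = 0.0604), WT replicate 2 (0.0513), WT replicate 3 (0.0558), WT replicate 4 (0.0788), Dux KO replicate 1 (0.0684) or Dux KO replicate 4 (0.0611). Leaving out Dux KO replicates 3 and 4 together also lost it.

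Eed, which binds trimethylated lysine 27 and stimulates the enzyme, fell: it was at 58.8, 58.5, 61.0 and 69.8 FPKM in WT against 42.1, 38.3, 46.4 and 44.0 FPKM in Dux KO. Its groups did not overlap, at means of 62.0 ± 5.33 and 42.7 ± 3.45 FPKM (SD, n = 4 each; log2 change -0.53, adjusted p = 0.0146, and 0.0680 under quantile normalization). Ezh2 was at 21.3, 20.8, 24.9 and 22.6 FPKM in WT and 25.4, 27.9, 20.9 and 24.3 FPKM in Dux KO and did not pass (log2 change 0.12, 95% interval -0.19 to 0.44, adjusted p = 0.509). Ezh1 did not pass either (log2 change -0.27, adjusted p = 0.202).

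The ratio of partner genes within a pool was computed for 16 pairs. It is given as a description, since it was looked at after some partners had changes of opposite sign. An exact permutation test over the pools has a smallest possible p of 0.0286. A pair at that p cannot pass alone after Benjamini-Hochberg adjustment over 16 pairs, so the test could not decide on a single pair. None of the 16 pairs passed, and the lowest adjusted p was 0.114. Eed over Suz12 was 0.585 to 0.760 in WT pools, against 0.286 to 0.410 in Dux KO pools, with no overlap and a log2 difference of -0.99. Ep300 over Crebbp was 0.617 to 0.963 in WT pools, against 0.329 to 0.522 in Dux KO pools, also with no overlap (log2 difference -0.73). Kmt5b over Kmt5c did not overlap either, at 11.8 to 43.6 in WT pools and 4.26 to 9.49 in Dux KO pools (log2 difference -1.46). However, Kmt5c rested on 10 to 62 reads a pool. Hdac1 over Hdac2 was 0.377 to 0.678 in WT pools, against 0.200 to 0.393 in Dux KO pools, and Suv39h1 over Suv39h2 was 0.686 to 1.17 and 0.263 to 0.758; in both the groups overlapped.

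**Figure D4:**
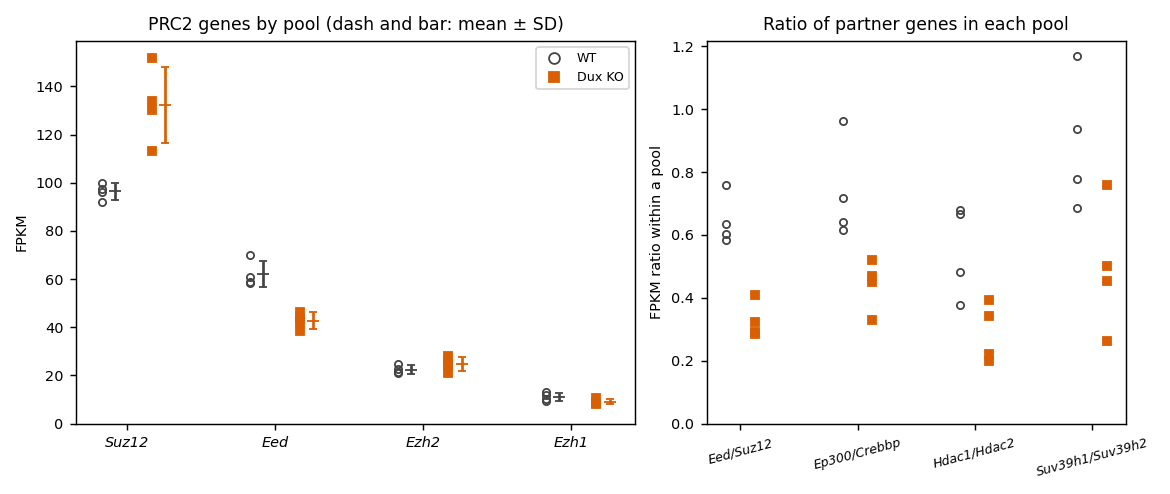
Left, FPKM of the 4 Polycomb repressive complex 2 genes in the 4 WT (open circles) and 4 Dux KO pools (filled squares), with the mean and SD beside them. Right, the ratio of FPKM within a pool for 4 of the 16 pairs of partner genes. Of the pairs drawn, Eed over Suz12 and Ep300 over Crebbp do not overlap between groups, and the others do.

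The other histone lysine methyltransferases are given by the residue they act on. Setd2, which trimethylates lysine 36 of histone H3 behind elongating polymerase, lies on chromosome 9 (110532597 to 110618633). It was at 60.1, 62.9, 76.6 and 72.3 FPKM in WT against 39.2, 37.4, 48.6 and 42.1 FPKM in Dux KO. The groups did not overlap, at means of 68.0 ± 7.75 and 41.8 ± 4.90 FPKM (SD, n = 4 each; log2 change -0.69, adjusted p = 0.00736).

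Among 6 genes for methylation of lysine 9 of histone H3, Setdb2 fell (16.7%, against 18.1% of all genes) and Suv39h2 rose (16.7%, against 15.5%). Setdb2, a relative of Setdb1, was at 39.5, 48.8, 41.3 and 43.1 FPKM in WT against 23.2, 30.2, 28.5 and 25.5 FPKM in Dux KO, with no overlap, and means of 43.2 ± 4.04 and 26.9 ± 3.15 FPKM (SD, n = 4 each; log2 change -0.67, adjusted p = 0.00753). Its call held under all 20 alternatives run. Suv39h2, one of the paralogues that trimethylate this lysine in heterochromatin, was at 16.4, 14.7, 16.1 and 12.7 FPKM in WT against 23.5, 23.7, 18.5 and 20.8 FPKM in Dux KO, again with no overlap (log2 change 0.50, adjusted p = 0.0258). Its call was lost without WT replicate 2 (adjusted p = 0.0519), WT replicate 4 (0.0777), Dux KO replicate 1 (0.0750) or Dux KO replicate 2 (0.0553). The paralogue Suv39h1, on chromosome X, was at 12.8, 10.1, 18.8 and 11.9 FPKM in WT against 6.18, 11.9, 8.41 and 15.7 FPKM in Dux KO (log2 change -0.35, adjusted p = 0.308). Ehmt1, Ehmt2 and Setdb1 had log2 changes of -0.48, -0.21 and -0.17 and did not pass with limma. Ehmt1 had an adjusted p of 0.0722, and it passed with edgeR (0.0492), with DESeq2 (0.0361), in the authors' deposited table and without WT replicate 2 (0.0311).

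None of the 5 tested genes for methylation of lysine 4 of histone H3 passed with limma (against 33.6% of all genes called). Their median log2 change was 0.22. At an unadjusted p under 0.05, 1 was higher (against 21.7% of all genes). Kmt2c, the most abundant, was at 14.7, 16.8, 20.7 and 16.7 FPKM in WT against 18.3, 19.7, 18.2 and 20.1 FPKM in Dux KO (log2 change 0.15, 95% interval -0.17 to 0.47, adjusted p = 0.440). Kmt2d, its paralogue, had Dux KO values above all WT values (log2 change 0.34, adjusted p = 0.0731) and was the 1 gene of the group that passed with edgeR (0.0231), with DESeq2 (0.0076) and in the authors' deposited table. Kmt2a was below the level filter at 0.0683 to 0.155 FPKM in WT and 0.136 to 0.202 FPKM in Dux KO.

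Kmt5b, which adds the second and the third methyl group to lysine 20 of histone H4, fell. It was at 8.86, 10.1, 8.57 and 9.73 FPKM in WT against 5.93, 4.19, 6.08 and 5.64 FPKM in Dux KO, with no overlap (log2 change -0.68, adjusted p = 0.00974). It shares 927 exon bases on the opposite strand with Gm16066, and as the strand setting of the counting is not given, reads from the pair cannot be told apart. Kmt5a, which adds the first methyl group, did not pass (log2 change -0.34, adjusted p = 0.123).

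Of the 5 other SET domain genes, Setd6 rose. Setd6, known for methylating the RelA subunit of NF-kB, was at 8.98, 6.20, 2.31 and 5.23 FPKM in WT against 9.70, 16.3, 10.3 and 10.8 FPKM in Dux KO (log2 change 1.02, adjusted p = 0.0240). The groups did not overlap but came close, and the call was lost without WT replicate 4 (adjusted p = 0.0532) or Dux KO replicate 2 (0.0619). Leaving out Dux KO replicates 3 and 4 together also lost it. Setd4 did not pass with limma on all pools (log2 change 0.55, adjusted p = 0.0598) but did with edgeR (0.0317), with DESeq2 (0.0139), in the authors' deposited table and without Dux KO replicate 4 (0.0298) or replicates 3 and 4 (0.0377). Setd3, Setd5 and Kmt2e had log2 changes of 0.00 to 0.21.

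Protein arginine methyltransferases had 1 lower gene of 7 (14.3%, against 18.1% of all genes) and 1 higher (14.3%, against 15.5%). Prmt5, the main enzyme for symmetric dimethylation of arginine, lies on chromosome 14 (54507187 to 54517525). It was at 27.9, 33.4, 34.8 and 41.6 FPKM in WT against 18.6, 13.3, 23.0 and 18.2 FPKM in Dux KO, with no overlap. Its means were 34.4 ± 5.62 and 18.3 ± 3.99 FPKM (SD, n = 4 each; log2 change -0.89, adjusted p = 0.00681).

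Prmt2 was at 8.42, 12.4, 15.9 and 10.5 FPKM in WT against 24.5, 31.7, 15.9 and 15.7 FPKM in Dux KO (log2 change 0.81, adjusted p = 0.0286). Dux KO replicates 1 and 2 were high, and replicates 3 and 4 lay at the level of WT replicate 3. The call was lost without WT replicate 1 (adjusted p = 0.0734), WT replicate 4 (0.0699), Dux KO replicate 1 (0.0757) or Dux KO replicate 2 (0.0689). Prmt1, the main enzyme for asymmetric dimethylation, did not pass with all pools (log2 change -0.59, adjusted p = 0.0804) but did without Dux KO replicate 3 (0.0278) or replicates 3 and 4 (0.0287). Prmt3, Prmt6, Prmt7 and Prmt9 had log2 changes of -0.14, -0.21, -0.36 and 0.25.

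Of 17 histone demethylase genes tested, 4 fell (23.5%, against 18.1% of all genes), none rose (against 15.5%) and 13 did not pass. Their median log2 change was -0.19. At an unadjusted p under 0.05 the count of higher demethylase genes was also 0, against 21.7% of all genes. It was 0 with edgeR and DESeq2 too (34.9% and 39.6% of all genes called in either direction). Kdm4c, which acts on lysines 9 and 36 of histone H3, was at 21.3, 22.0, 23.1 and 24.4 FPKM in WT against 11.6, 10.3, 16.7 and 16.9 FPKM in Dux KO (log2 change -0.70, adjusted p = 0.0144). The groups did not overlap, and Dux KO replicates 1 and 2 were the lowest. Kdm2b, a demethylase that also brings a variant Polycomb repressive complex 1 to CpG islands, was at 2.12, 3.27, 2.13 and 2.24 FPKM in WT against 1.13, 0.603, 1.37 and 1.08 FPKM in Dux KO (log2 change -0.75, adjusted p = 0.00930). The groups did not overlap, while Rnf34, with which Kdm2b shares 627 exon bases on the opposite strand, rose from a mean of 23.0 to 38.9 FPKM.

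Kdm3b, which removes methyl groups from lysine 9 of histone H3, was at 1.93, 2.71, 1.57 and 2.14 FPKM in WT against 0.753, 0.943, 1.00 and 1.30 FPKM in Dux KO, with no overlap (log2 change -0.62, adjusted p = 0.0139). It shares 3468 exon bases with Gm26538 on the opposite strand. Kdm5b, which acts on lysine 4, was at 13.4, 17.0, 17.8 and 20.6 FPKM in WT against 10.1, 9.52, 11.1 and 15.8 FPKM in Dux KO (log2 change -0.54, adjusted p = 0.0486). Dux KO replicate 4 overlapped the WT pools. The call was lost without WT replicate 2 (adjusted p = 0.0805), WT replicate 3 (0.0909), WT replicate 4 (0.130), Dux KO replicate 1 (0.121), Dux KO replicate 2 (0.110) or Dux KO replicate 3 (0.0875), and also with no level filter (0.0506), quantile normalization (0.0841) or median-of-ratios scaling (0.0526).

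Kdm7a, the most abundant demethylase gene, did not pass: it was at 21.7, 24.4, 26.7 and 22.8 FPKM in WT and 25.3, 30.7, 23.1 and 30.4 FPKM in Dux KO (log2 change 0.18, 95% interval -0.14 to 0.51, adjusted p = 0.348). The other 12 that did not pass had log2 changes from -0.49 (Kdm4a) to 0.28 (Kdm6b), and Kdm4a passed without Dux KO replicate 2 (adjusted p = 0.0326). The pseudogene Kdm4dl, at means of 5.50 and 4.81 FPKM, did not pass (log2 change -0.13), and reads of the Kdm4d family may have been split with it.

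The 7 bromodomain genes showed no call in either direction (against 33.6% of all genes). Their log2 changes ran from -0.32 (Brd9) to 0.28 (Brd3), with a median of 0.05. Brd7, the most abundant, had means of 18.2 and 16.8 FPKM (log2 change -0.13, 95% interval -0.52 to 0.27, adjusted p = 0.603). At an unadjusted p under 0.05 there were also 0 of 7 in either direction (against 21.7% higher and 24.8% lower of all genes). With edgeR and DESeq2, 0 of 7 were called as well (against 34.9% and 39.6% of all genes). Brd3os, at 1.85 and 1.60 FPKM, did not pass.

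By function, writers had 4 higher and 9 lower of 41 tested (9.76% and 22.0%, median log2 change -0.14). Erasers had 1 higher and 7 lower of 31 (3.23% and 22.6%, median -0.20). Among all genes tested these shares were 15.5% and 18.1%. Of the 5 tested genes on chromosome X (Hdac6, Hdac8, Kdm5c, Kdm6a and Suv39h1) only Hdac8 was called with limma (against 33.6% of all genes). Hdac6 and Hdac8 had groups that did not overlap (against 33.1% of all genes). Hdac6 was called lower with DESeq2 and in the authors' deposited table. Y-linked transcripts differed between pools, and not all in the same direction. Uty, a Y-linked relative of Kdm6a, was at 2.88 to 7.94 FPKM in WT and 0.476 to 4.28 FPKM in Dux KO. Eif2s3y was at 2.21 to 13.5 and 0.517 to 4.39 FPKM, and both were lowest in Dux KO replicate 4. Ddx3y, Gm47283 and Kdm5d also had their highest value in a WT pool. Usp9y, Zfy1 and Zfy2 were highest in Dux KO replicate 1, at 3.53, 1.87 and 2.55 FPKM. Their WT pools reached 2.54, 1.73 and 2.05 FPKM in turn. The part of Y-linked transcripts in the levels of X-linked genes was not tested. Kdm5d, on chromosome Y, was below the level filter at 0.241 to 0.750 FPKM in WT and 0.280 to 0.486 FPKM in Dux KO.

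Other genes of histone modification were listed apart from the symbol rule, with earlier results of these data known. They comprised 91 subunits, readers and enzymes, of which 78 are in the table and 76 were tested. Of these 7 rose and 13 fell, 26.3% in all against 33.6% of all genes tested (9.21% higher against 15.5%, 17.1% lower against 18.1%), with a median log2 change of -0.01. Smyd5, a SET and MYND domain gene, fell from a mean of 15.3 ± 5.44 to 4.98 ± 1.63 FPKM (SD, n = 4 each; log2 change -1.43, adjusted p = 0.00458). Pcgf1, which pairs with Kdm2b in variant Polycomb repressive complex 1, fell from 229 ± 25.6 to 111 ± 22.3 FPKM (SD, n = 4 each; log2 change -1.06, adjusted p = 0.00309). Riox2 and Prdm9 fell by 1.12 and 1.01 on the log2 scale, and Prdm9 did not pass without Dux KO replicate 1 (adjusted p = 0.0524). Of those that rose, Cbx1, a heterochromatin protein that binds methylated lysine 9, went from 10.4 to 24.2 FPKM (log2 change 1.13, adjusted p = 0.00353) and Brdt, a bromodomain gene outside the symbol rule, from 196 to 373 FPKM (log2 change 0.90, adjusted p = 0.00913). Tbl1xr1 and Msl1 rose with log2 changes of 0.76 and 0.66, and Tbl1xr1 did not pass without WT replicate 4 (adjusted p = 0.0509).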

How the data were processed

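RNA sequencing of 4 Dux KO and 4 WT pools of mouse embryos at the 2-cell stage was used as deposited, with groups and replicate numbers taken from the sample labels. The tools STAR 2.6.1a, Trimmomatic 0.32 and SAMtools 1.7 and the build GRCm38 (mm10) are named, with no role, per the submitters' processing notes. Not given in the sources used here are the annotation, the counting program and its strand setting, the handling of multi-mapping reads and how the authors tested. Gene values are FPKM as deposited by the authors, and their steps point to scaling by a size factor for each library, though no source states it. The deposited repeat values are FPM, a signal scaled to library size by the authors. Both deposited tables also give a mean signal, a log2 fold change and an adjusted p-value from the authors' own comparison. Genes with low counts are not in the table, whose lowest mean count was 25.0, and 0 numeric columns were left without a sample.

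Dividing values by their step gave back whole reads, 100% of them whole within 0.05. Depth was 12343369 to 14548526 gene reads a pool, and any 2 pools of the same group were further apart than counting noise (chi-square over degrees of freedom at least 13.8). The test was limma 3.58.1 (R 4.3.3) with trended variance, robust moderation and no covariates, on log2(FPKM + 1) for the 12434 genes averaging 0.5 FPKM or more, with Benjamini-Hochberg adjustment over all of them. A gene was called at an adjusted p under 0.05. The filter left out 3 of the 85 genes, and 1 gene that did not pass the test is counted but not reported here singly.

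Alternatives changed the pseudocount (0.1), the filter (none, or 5 FPKM), the scaling (quantile, median-of-ratios), the model (a block for the replicate number, plain limma moderation), the tool (edgeR 4.0.16 or DESeq2 1.42.0 on recovered reads, or the authors' adjusted p-values) and the pools (omitting 1, or a pair of Dux KO pools). Both pseudogenes were kept out of the counts by role. Within each role the genes described were up to 3 called in each direction by size of change, the most abundant one and the most abundant one not called. Every other gene given with a value was chosen after its values were seen. Of the other histone-modification genes up to 4 were taken in each direction. The symbol rule uses no measured value, but the rule and the lists were chosen with earlier results of these data known. Gene coordinates and shared exon bases come from GENCODE M21, promoters from RefSeq (GRCm38.p6).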

Additional observations from a re-analysis of the deposited data

Results flagged for a closer look

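In groups of 4 pools, a value was picked out where its gap to the nearest other pool exceeded the share of the group's range given by Dixon's 95% critical value, which chance does in about 1 of 20 groups; 82 groups of the genes described were examined and 3 met it. Kdm2b stood at 3.27 FPKM in WT replicate 2, against 2.12 to 2.24 FPKM in the other WT pools. Setd6 stood at 16.3 FPKM in Dux KO replicate 2, against 9.70 to 10.8 FPKM in the other Dux KO pools. Msl1 stood at 5.21 FPKM in Dux KO replicate 3, against 6.87 to 7.18 FPKM in the other Dux KO pools.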

How the results depend on the processing

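Counts of genes called depended most on the pools used. Leaving out 1 pool at a time gave 1 to 5 higher genes (5 with all pools), 12 to 16 lower genes (16 with all pools) and 12 to 21 of the other histone-modification genes (20 with all pools). Without Dux KO replicates 1 and 2 together these counts were 0, 1 and 4, from 2 against 4 pools. Under the other alternatives the counts stayed within 1.5 times, at 4 to 7 higher and 12 to 18 lower, both edgeR and DESeq2 calling 7 higher and, in turn, 16 and 18 lower. With the replicate number as a block, 5 rose and 17 fell, and 23 of the other genes were called. The share of all genes called was 38.1% with the block and 33.6% without it. With the block Kat2b was not called, and Ehmt1 and Prmt1 were called lower. Same-numbered pools did not all deviate together (correlations -0.12, 0.33, -0.06 and 0.30), so the numbers were not taken to pair them. Of the 21 genes called, 20 lost the call under at least 1 of the alternatives, and 0 changed sign. Of the 61 not called, 9 passed under at least 1 (Ehmt1, Ep300, Hdac6, Kdm4a, Kmt2d, Prmt1, Setd4, Sirt1 and Sirt5), and 16 changed sign under at least 1; the cause was not tested. Among these Brd7 went to 0.027 without Dux KO replicates 3 and 4, and Kdm4dl ranged from -0.37 to 0.15 on omitting single pools and was 0.17 without Dux KO replicates 3 and 4. Depth limits the genes under 1 FPKM, where Hdac3 rested on 20 to 102 reads a pool.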
